A study of Caenorhabditis elegans with 2 samples.

Results

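The mir-51 family of Caenorhabditis elegans consists of the microRNA genes mir-51, mir-52, mir-53, mir-54, mir-55 and mir-56. These 6 genes were examined, of 261 annotated microRNA genes and 46890 annotated genes in all, for intervals recovered with the tagged nuclear hormone receptor NHR-111, a transcription factor. The members were chosen by the position and signal of intervals near them in these same data, so positions and signals are given as a description and no test was made on them. Every interval was listed whose summit, the point of highest signal, lay within 2000 bp of a member. The data came from chromatin immunoprecipitation and sequencing of whole L4 larvae of both sexes, 48 h old and synchronised by starvation at L1 after bleaching, with an antibody against GFP. Both biological replicates were of strain OP569, with the genotype unc-119(tm4063); wgIs569, and they formed a single group. The transgene wgIs569 encodes NHR-111 with a C-terminal TY1, EGFP and 3xFLAG tag and also carries a wild-type copy of unc-119, so tagged receptor and rescue were shared by both libraries and no condition could be compared with another. Whole animals were used, so the cells in which an interval was bound cannot be told apart.

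MicroRNAs are cut from hairpin precursors by the nuclear nuclease Drosha and then by Dicer, and an Argonaute protein carries the finished strand to messenger RNAs. The seed, near the 5′ end of that strand, pairs with the target, so microRNAs that share a seed are grouped as a family. In C. elegans the mir-51 family is broadly and abundantly expressed, loss of all members together is lethal to the embryo, and the family is related to vertebrate miR-100.

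The mature strands are shown first because the shared seed defines the family while the rest of the sequence separates its members. Bases 2 to 8, the seed, are in capitals.
mir-51 5p: uACCCGUAgcuccuauccauguu
mir-52 5p: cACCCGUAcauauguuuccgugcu
mir-53 5p: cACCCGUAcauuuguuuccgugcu
mir-54 3p: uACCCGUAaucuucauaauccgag
mir-55 3p: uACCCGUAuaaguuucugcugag
mir-56 3p: uACCCGUAauguuuccgcugag

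The seed ACCCGUA occurred in 6 of 458 annotated mature sequences, 1 from each member and 0 from any other microRNA gene. The 3 members on chromosome IV carry it in the 5p arm of the hairpin and the 3 members on chromosome X in the 3p arm. Over the 15 pairs of members, identity of the seed-bearing strand ran from 55.2 to 95.8% with a median of 65.4%. The most alike pair was mir-52 and mir-53, which matched at 95.8% over this strand and at 79.0% over the whole hairpin. Those close copies lay 3006316 bp apart, and the intervals around them differed in position, as described for each locus.

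The genes fall at 3 loci, with coordinates in assembly ce11. On chromosome IV, mir-51 (WBGene00003279, IV:11026013-11026112, minus strand) and mir-53 (WBGene00003281, IV:11027593-11027691, minus strand) are separated by 1480 bp. Their nearest protein-coding genes are alh-3, 143 bp from mir-51, and hrg-5, 598 bp from mir-53. On the same chromosome, mir-52 (WBGene00003280, IV:14034008-14034107, plus strand) stands apart from mir-51 and mir-53, with its nearest protein-coding gene, Y37A1B.7, 8488 bp away. On chromosome X, mir-54 (WBGene00003282, X:13144996-13145094), mir-55 (WBGene00003283, X:13144827-13144924) and mir-56 (WBGene00003284, X:13144691-13144787) lie on the minus strand, 71 and 39 bp from each other. All 3 of these sit inside an intron of the protein-coding gene F09A5.3, which is transcribed from the opposite strand.

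The authors deposited 30000 intervals for each replicate and 30000 for the pooled alignments, which include background, and 501 peaks retained after thresholding on the irreproducible discovery rate, which weighs how similarly the replicates ranked an interval. No source used here states the scale of the signal deposited for each interval. In the pooled list the median signal was 43.0, and in the thresholded list it ran from 101.5 to 432. Median signal was 23.4 in the replicate 1 list and 25.5 in the replicate 2 list. Depth is unknown, as read totals are not among the values analysed here. Every thresholded peak was among the top 501 pooled intervals, ranked by signal from 1 for the strongest.

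All 6 members had a thresholded summit within 2000 bp. Among all annotated genes this held for 3.60%, among protein-coding genes for 4.03%, and among the 255 microRNA genes outside the family for 5.88% (15 genes). The rule had used these positions, so nothing is read from the family's count. The 6 members shared 4 thresholded peaks, because neighbouring genes lie within reach of the same summit. The full lists held 10 intervals within reach in the pooled data, 12 in replicate 1 and 10 in replicate 2. In the full pooled list 61.7% of all genes and 73.3% of other microRNA genes also had a summit within reach, so weak intervals near a member are common to most genes.

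**Figure D1:**
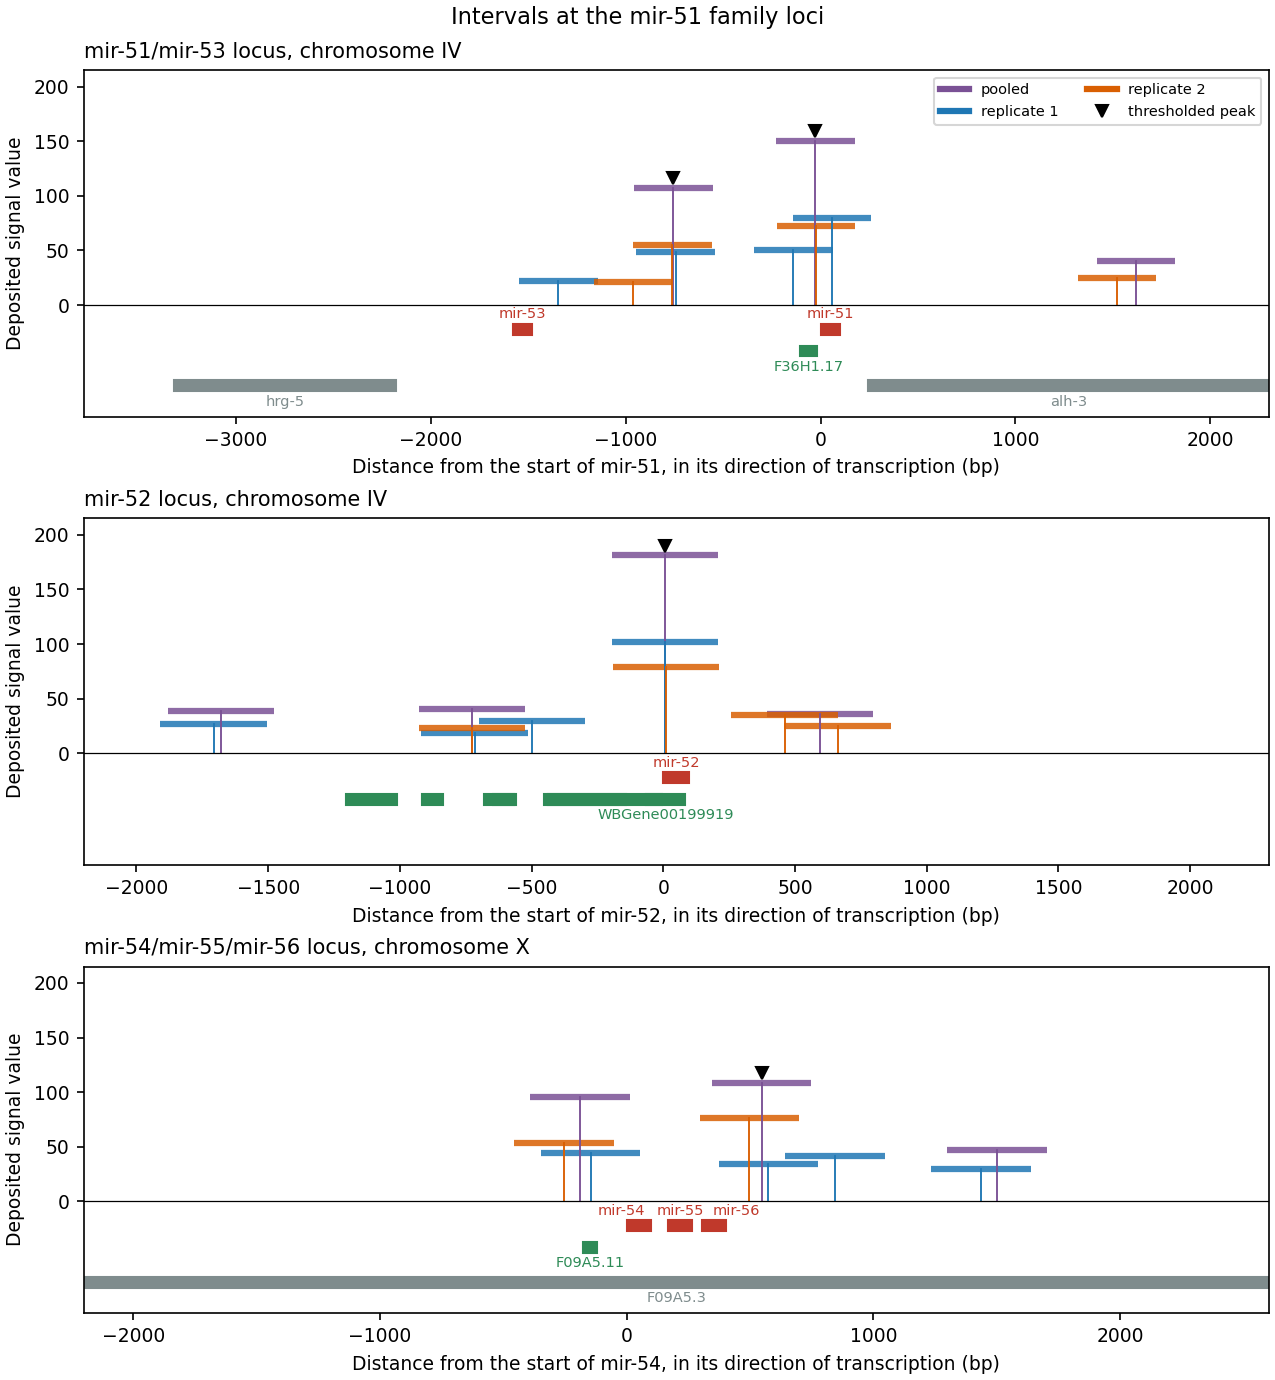
Deposited signal value (y axis, scale not given) of each interval within reach of a family gene, drawn as a bar over its extent with a line at its summit, against distance in bp from the start of mir-51, mir-52 or mir-54 (x axis). Family hairpins are red, other non-coding genes green and protein-coding genes grey, and piRNA genes and F09A5.15 are not drawn; the pooled, replicate 1 and replicate 2 summits all fall within the hairpin only for mir-52.

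The strongest interval of the family lay on mir-52 itself. Its pooled signal was 181.2, rank 65 of 30000, which placed it above 87.0% of the thresholded peaks and 8th among the 72 on chromosome IV. The summit was 6 bp downstream of the annotated start of the hairpin, and the interval (IV:14033812-14034215) covered all 100 hairpin bases. In replicate 1 the signal was 101.8 (rank 26) with the summit 8 bp downstream of the start, and in replicate 2 it was 78.9 (rank 162) with the summit 10 bp downstream. Both summits were inside the hairpin and 2 bp from each other, against a median of 25 bp over the 495 thresholded peaks matched in both replicates. The mean was 90.3 ± 16.2 (SD, n = 2), an SD of 17.9% of the mean, close to the median of 18.4% over those matched peaks. The ratio of replicate 2 to replicate 1 was 0.775, above that of only 11.3% of the matched peaks, whose median was 1.18.

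The summit base and 50 bases on either side are shown because they hold the start of the gene and the mature strand printed above. The plus strand is given and capitals mark the 57 bases of the annotated hairpin.
mir-52 summit, IV:14033964-14034064: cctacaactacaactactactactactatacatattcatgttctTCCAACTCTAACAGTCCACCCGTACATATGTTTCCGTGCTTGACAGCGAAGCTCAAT

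The whole mature mir-52 strand lies within the capitals. G and C made up 40.6% of the window, below the median of 48.5% over the windows at all 501 thresholded summits. One other gene was as close to the summit as mir-52. The non-coding RNA gene WBGene00199919 (IV:14033942-14034090) runs on the minus strand across the start of mir-52, so the peak lies on both genes and the lists cannot assign it to either strand. The nearest transfer RNA gene, Y37A1B.t1, was 20138 bp from the summit.

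The remaining intervals around mir-52 were weak. The pooled list held 3 more within reach, with signals of 40.1, 38.7 and 36.1 at ranks 18269, 19931 and 23569. The first and second lay 726 and 1678 bp upstream of the start, where annotated non-coding or piRNA genes were closer to the summit than mir-52. The last lay 597 bp downstream of the start, with mir-52 as the closest gene body. In replicate 1 the corresponding range was 18.2 to 29.8, and in replicate 2 it was 23.1 to 35.4. Within 20 kb of mir-52 and outside the reach of 2000 bp, the highest pooled signal was 59.7, so the mir-52 peak was 3.04 times the strongest interval around it on the deposited scale. The ratio was 3.82 in replicate 1 and 2.26 in replicate 2.

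The strongest interval at the mir-51 and mir-53 locus lay at the start of mir-51. Its pooled signal was 150.2 (rank 124), above 75.2% of thresholded peaks, and the interval (IV:11025937-11026340) covered all 100 bases of the mir-51 hairpin. The summit was 27 bp upstream of the hairpin start. In replicate 1 the signal was 79.5 (rank 90) and the summit was 59 bp downstream of the start, inside the hairpin. In replicate 2 the signal was 72.7 (rank 230) and the summit was 23 bp upstream. The mean was 76.1 ± 4.81 (SD, n = 2), so signal differed little between replicates while the summits were 82 bp apart. Replicate 1 also listed an overlapping interval of signal 50.5 (rank 577) with its summit 140 bp upstream of the start, so its 2 summits lay on either side of the pooled one.

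A non-coding RNA gene was closer to the pooled summit than mir-51. F36H1.17 (WBGene00219935, IV:11026131-11026219, minus strand, 89 bp long) is 19 bp from the hairpin, and both the pooled and the replicate 2 summits fell inside its exon. The replicate 1 summit of higher signal fell inside mir-51, and the other lay 33 bp from F36H1.17. The sequence of F36H1.17 is printed because it holds a word that resembles 1 of the internal promoter elements of transfer RNA genes. This element, the B box, is bound by the RNA polymerase III factor TFIIIC. The match to GTTCGANNC, where N is any base, is in capitals.
F36H1.17, IV:11026131-11026219: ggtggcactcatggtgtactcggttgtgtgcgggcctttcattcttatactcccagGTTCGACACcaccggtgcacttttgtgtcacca

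Read on the gene's strand, this word occurred in 72.1% of 612 transfer RNA genes and in 2.46% of 1340 other non-coding RNA genes of 70 to 110 bp. It was in 0 of the 6 family hairpins and in 1 of the 255 other microRNA genes. On either strand it was in 14.6% of the 501 windows of this kind at thresholded summits and in 1.54% of those at all pooled summits. The A box, the other internal element of these genes, was searched only as TRGYNNARNGG, where R is A or G and Y is C or T. That pattern was found in 72.4% of the transfer RNA genes, in 1.19% of the other non-coding RNA genes and not in F36H1.17. Looser forms of the A box were not searched, so whether F36H1.17 holds one was not tested. Identity of F36H1.17 to transfer RNA genes ran from 39.8 to 59.1%, and to the family hairpins from 46.0 to 51.8%. A match to these letters is a description of the sequence and not a measured site.

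The window at the pooled summit, given on the minus strand with the 24 hairpin bases of mir-51 in capitals, shows how that word and the start of the hairpin lie together under 1 peak.
mir-51 summit, IV:11026089-11026189: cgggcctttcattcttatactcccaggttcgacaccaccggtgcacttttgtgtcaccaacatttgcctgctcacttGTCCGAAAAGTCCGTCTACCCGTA

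The second thresholded peak of this locus lay between the genes. Its pooled signal was 107.0 (rank 407) and its summit (IV:11026867) was intergenic, 755 bp upstream of the start of mir-51 and 726 bp beyond the 3′ end of mir-53. Replicate 1 gave a signal of 48.4 (rank 714) and replicate 2 of 54.6 (rank 675), with summits 17 bp apart. The mean was 51.5 ± 4.39 (SD, n = 2). The peak stood above 18.8% of thresholded peaks, and neither replicate placed it among its own 501 strongest. F36H1.17 was again the closest gene, at 648 bp.

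No strong interval was centred on mir-53. The interval nearest to it was in replicate 1, with a signal of 22.4 (rank 17036), just under that list's median, and its summit 135 bp past the 3′ end of the hairpin, where it covered 67 of 99 hairpin bases. Replicate 2 had an interval of 20.7 (rank 24886) with a summit 520 bp past the 3′ end, and the pooled list had none closer than the peak at 726 bp. The difference between mir-52, whose own hairpin held the summit, and mir-53, its closest relative in sequence, was present in the pooled list and in both replicates. A weak pooled interval of 40.4 (rank 17881), matched in replicate 2 at 24.8 (rank 16253), lay in an exon of alh-3, 1518 bp from mir-51. Transfer RNA genes were remote from this locus, with C29F4.t1 the nearest at 205426 bp from the mir-51 peak.

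On chromosome X the 3 clustered members shared a single thresholded peak on the mir-56 side. Its pooled signal was 108.4 (rank 388), above 22.6% of thresholded peaks and 86th among the 108 on that chromosome. The summit (X:13144547) was 144 bp past the 3′ end of mir-56, 240 bp downstream of its start, 377 bp from the start of mir-55 and 547 bp from that of mir-54. In the pooled list and in both replicates the summit lay in an intron of F09A5.3, which is on the opposite strand. The pooled interval (X:13144345-13144748) covered 58 of the 97 bases of mir-56. The replicates disagreed here. The signal was 34.2 (rank 3815) in replicate 1 and 76.8 (rank 181) in replicate 2, with summits 77 bp apart and a mean of 55.5 ± 30.1 (SD, n = 2). The ratio of replicate 2 to replicate 1 was 2.24, above that of 95.8% of the 495 matched peaks, whose median was 1.18. Replicate 1 listed a stronger neighbour of 41.9 (rank 1426) that overlapped the pooled interval, with its summit 442 bp past the end of mir-56. The strongest interval of the cluster in replicate 1 was on the other side, upstream of mir-54, so the strongest summit lay 453 bp upstream of the start of mir-56 in replicate 1 and 190 bp downstream of it in replicate 2.

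A second interval flanked the cluster on the mir-54 side and fell short of the thresholded list. Its pooled signal was 95.5 (rank 625), below the lowest thresholded value of 101.5, and its summit (X:13145284) was 190 bp upstream of the start of mir-54. The signal was 44.0 (rank 1122) in replicate 1 and 53.3 (rank 751) in replicate 2, with a mean of 48.6 ± 6.58 (SD, n = 2) and summits 108 bp apart. The replicates were therefore closer in signal at this unthresholded interval than at the thresholded one. The non-coding RNA gene F09A5.11 (X:13145213-13145271) was 13 bp from the pooled summit and held the replicate 1 summit. These summits and that of replicate 2 also lay in an intron of F09A5.3. A further pooled interval, of 47.5 (rank 11184), lay 1098 bp past the end of mir-56. Neither strong summit fell within a hairpin of the cluster in any list.

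Both windows are shown on the minus strand because they are rich in G and C and hold short repeats, with GAGAGA or its reverse complement TCTCTC in capitals.
mir-56 side summit, X:13144497-13144597: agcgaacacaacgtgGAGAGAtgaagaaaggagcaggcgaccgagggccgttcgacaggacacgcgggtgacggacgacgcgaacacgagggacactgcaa
mir-54 side summit, X:13145234-13145334: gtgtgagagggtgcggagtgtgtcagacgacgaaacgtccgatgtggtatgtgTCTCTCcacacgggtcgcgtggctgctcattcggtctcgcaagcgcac

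G and C made up 61.4% of the first window and 60.4% of the second, above 93.6 and 92.0% of the 501 windows at thresholded summits. The word GAGAGA, searched on both strands, occurred in 11.4% of those windows and in 8.04% of windows at all pooled summits. The family's windows at the mir-51, mir-52 and intergenic summits held no match. In the family's promoters, taken as 250 bases before to 50 after the gene start, the word was found at mir-52, mir-53, mir-54 and mir-55. The mir-53 promoter had the most matches, 8, although no strong interval was centred on that gene. The mir-54 promoter contains the mir-54 side window and overlaps the mir-55 promoter, so these counts share sequence and are not independent. It occurred in 23.1% of the promoters of other microRNA genes and 17.5% of those of all genes. The nuclear receptor motif AGGTCA, on either strand, was found in none of the family's summit windows or promoters, and in 3.59% of the 501 summit windows, 7.06% of the promoters of other microRNA genes and 7.29% of all promoters.

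**Figure D2:**
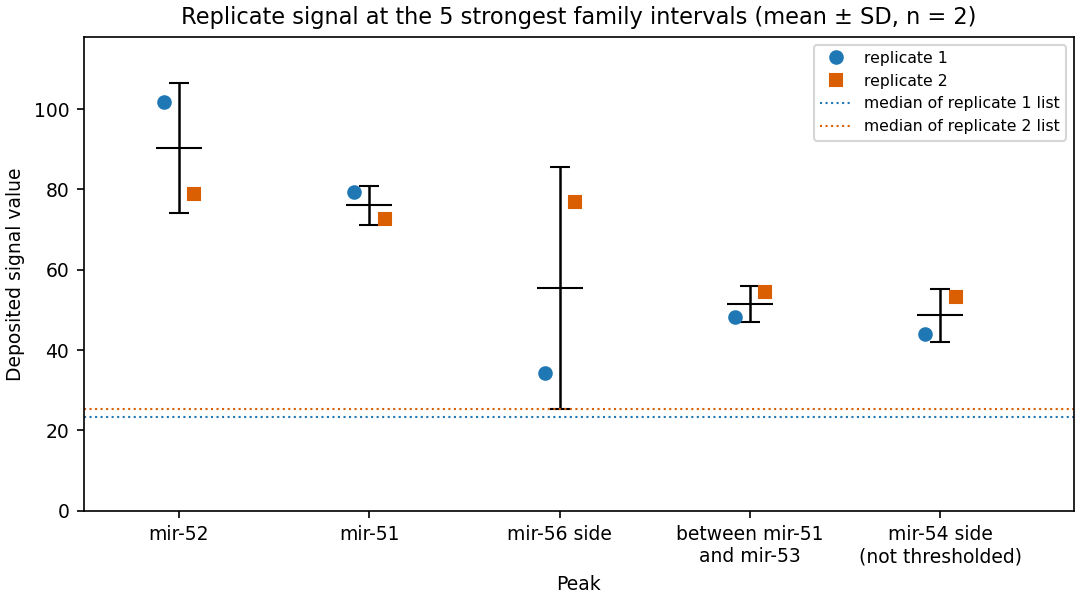
Deposited signal value in replicate 1 (circles) and replicate 2 (squares) at the 5 strongest family intervals, with horizontal and vertical bars for the mean ± SD (n = 2) and dotted lines for the median of each replicate list. The replicates lie farthest apart at the mir-56 side peak, at 34.2 and 76.8, and all points lie above the medians of 23.4 and 25.5.

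Taking each replicate's 501 strongest intervals in place of the thresholded list separated the loci. In replicate 2 all 6 members had a summit within reach, against 3.49% of all genes and 3.92% of other microRNA genes. In replicate 1 the members mir-51, mir-52 and mir-53 did, against 3.42 and 3.53%, while no interval of the chromosome X cluster ranked better than 1122. Within 20 kb of the cluster the strongest replicate 1 interval near a member was 1.10 times the strongest one elsewhere, compared with 1.82 in replicate 2. At the mir-51 and mir-53 locus the same ratio was 1.90 in replicate 1 and 1.80 in replicate 2. Thresholded summits outside the reach were remote from all loci, the nearest being 92143 bp from the mir-51 and mir-53 locus, 140612 bp from mir-52 and 23391 bp from the chromosome X cluster. In the pooled list the summits just outside the reach of 2000 bp were at 3063, 16075 and 3410 bp, and the outermost within it at 1518, 1678 and 1098 bp, in the same order of loci.

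**Figure D3:**
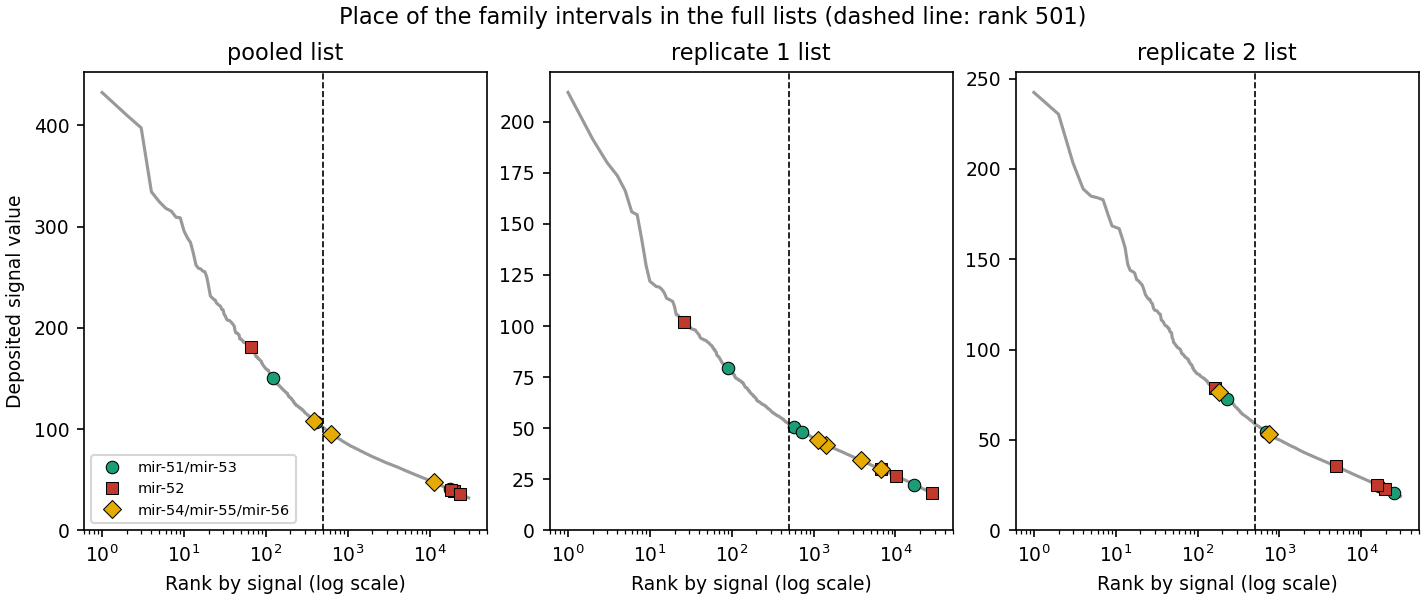
Deposited signal value against rank by signal (log scale) for all intervals of the pooled, replicate 1 and replicate 2 lists (grey line), with the family intervals as symbols coloured by locus and a dashed line at rank 501. The chromosome X intervals stay to the right of the line in replicate 1, where the strongest has rank 1122, and reach rank 181 in replicate 2.

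Set beside the other microRNA genes, the family members had high signal in their reach. The strongest pooled interval within 2000 bp had a median signal of 129.3 over the 6 members, with a lowest value of 108.4, and a median of 55.4 over the 187 other microRNA genes that had an interval (quartiles 43.0 and 65.5). The family had been chosen for this measure, and its 6 values come from 3 peaks. Of the other genes, 10 had a value above 108.4 and 0 exceeded mir-52. The 15 other genes with a thresholded summit shared 12 peaks. For 3 of these genes a gene annotated as transfer RNA or snoRNA lay closer to the summit, and for 3 no other gene did. C44C11.t1, closer to 1 of the summits, was annotated as neither and was not counted. The summit lay within 200 bp of the hairpin for 1 of the 15 genes, mir-80, where it was 127 bp upstream. None of the 4 family peaks had a gene annotated as transfer RNA or snoRNA within 2000 bp of its summit, whereas 45.1% of the 501 thresholded peaks did. The mir-51 summit lay in F36H1.17, which holds the B box word but is annotated as another kind of non-coding RNA.

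The highest signals among other microRNA genes came from peaks at a distance. The peak in reach of mir-235, at 165.0, was 1960 bp from the gene, with the transfer RNA genes T09B4.t1 and T09B4.t2 closer. The peak of mir-1819 and mir-2212, at 138.2, was 1817 bp from the nearer gene, with R11.t1, R11.t2, R11.t3 and R11.t4 closer. Genes of other kinds were closer too, T09B4.8 and T09B4.19 at the mir-235 peak, and R11.4 and R11.7 at the mir-1819 and mir-2212 peak. Next came mir-4929 at 123.3, lin-4 at 119.7 and mir-354 at 113.3, with summits 862, 405 and 892 bp from the gene. Closer to the summit were pqn-27 and E01G4.3 at mir-4929 and rps-20 and ekl-4 at mir-354, and those at lin-4 are named below. Likeness to mir-52 was measured as the distance between log2 signals in the 2 replicates. By it the nearest genes were mir-1819 and mir-2212, which share the values 61.2 and 74.4 of 1 peak at a distance of 0.74, followed by lin-4 with 69.6 and 47.7 at a distance of 0.91. The annotated microRNA gene F09A5.15, on the strand opposite mir-55, is counted among the other genes and lies in reach of the family's own chromosome X peak.

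**Figure D4:**
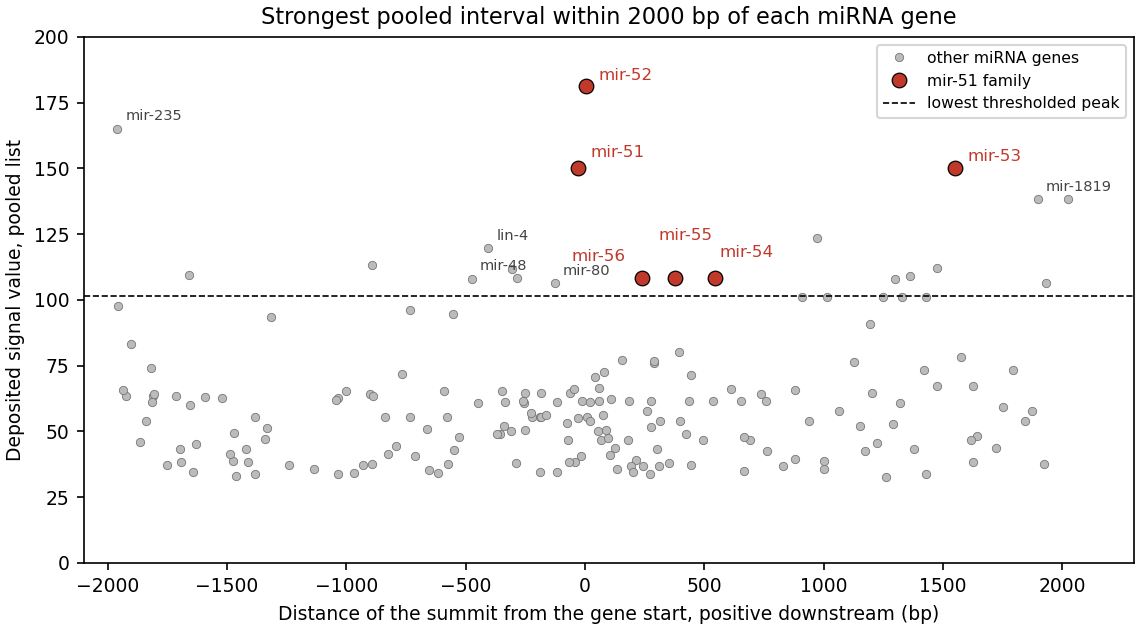
Signal of the strongest pooled interval within 2000 bp of each annotated microRNA gene (y axis, deposited value) against the distance of its summit from the gene start in bp (x axis, positive downstream), with family members in red and a dashed line at the lowest thresholded signal. The red points of mir-52 and mir-51 lie at 6 and -27 bp, mir-53 takes its value from the mir-51 peak, and mir-54, mir-55 and mir-56 share 1 peak at 108.4.

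Other microRNA families were counted in the same way, with no test, against the 5.88% of microRNA genes outside the mir-51 family and 3.60% of all genes given above. In the let-7 family, which times larval development, 2 of 4 genes had a thresholded summit in reach, mir-48 and mir-241, which share 1 peak of signal 108.0 located 475 bp upstream of mir-48. The signal near let-7 itself was 57.8. In the lin-4 family, which acts at earlier larval transitions, a peak lay 405 bp upstream of lin-4, with F59G1.4, F59G1.10 and F59G1.12 closer to its summit, and mir-237 had none. In the abundant mir-58 family 1 of 5 genes, mir-80, had a peak of 106.4, matched in replicate 2 at 83.0 and without a match in replicate 1. No member of the mir-35 family (8 genes), the mir-44 family (4), the mir-64 family (4) or the mir-72 family (3) had a thresholded summit within 2000 bp.

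Genes that make microRNAs or act with them were listed as the pathway in which the family works. Of 15 such genes, 5 had a thresholded summit within 2000 bp, against 4.03% of protein-coding genes. The list was chosen with earlier results of these data known and was given no test. The highest was xrn-2, an exonuclease that degrades mature microRNAs, with a pooled signal of 140.8 (61.5 in replicate 1 and 80.2 in replicate 2) and a summit 92 bp downstream of its start. For nhl-2, a cofactor of microRNA silencing, the pooled signal was 127.9 (59.9 and 63.1) and the summit was 839 bp upstream, with tag-340 and F26F4.14 closer. For ain-1, which encodes a GW182-like partner of Argonaute, it was 115.8 (56.0 and 59.6), with the summit 783 bp upstream and no other gene closer. The peak near cgh-1, a DEAD-box helicase of RNA granules, had a signal of 109.8 (51.97 and 60.0). Its summit was 2711 bp downstream of the cgh-1 start and 199 bp past the 3′ end, with C07H6.15 and C07H6.17 closer. The peak near vig-1, a component of the RNA-induced silencing complex, had a signal of 105.9 (39.0 and 65.6) and lay 437 bp upstream, with fcho-1 and 21ur-13751 closer.

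The other 10 genes of the list had no thresholded summit in reach, and their strongest pooled signals ran from 36.1 to 99.2. The highest of these were 99.2 (rank 545) near hrpk-1, an RNA-binding protein gene, and 89.4 (rank 823) near tsn-1, which encodes a Tudor staphylococcal nuclease. The signal was 80.01 near pab-1, which encodes poly(A)-binding protein, 73.0 near let-711, the scaffold of the CCR4-NOT deadenylase, and 59.5 near ain-2, a relative of ain-1. It was 40.4 near drsh-1, which encodes Drosha, 36.1 near its partner pash-1 and 41.2 near dcr-1, which encodes Dicer. The values were 70.7 near alg-1 and 38.4 near alg-2, the Argonaute genes of the microRNA pathway. Genes as close or closer to the summit were tag-151 for tsn-1, tba-1 for drsh-1 and the snoRNA gene K02B9.10 for alg-1. For pab-1 they were rpl-30, madf-10 and pdpr-1, and for the rest of the 10 genes there were none. For cdh-3, a cadherin gene reported as a target of the family, the strongest pooled signal was 41.6 (rank 16526).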

How the data were processed

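Interval lists from NHR-111 chromatin immunoprecipitation were available for 2 biological replicates, for the pooled alignments and after thresholding, with assembly ce11 given by the labels. By the text files deposited with the samples, each list was made against a control alignment shared by both replicates, which was not analysed here. No source used here gives the aligner, peak caller, settings or threshold. The signal per interval is the value deposited by the authors, used as deposited without scaling between lists. Ranks did not use the −log10 q-value that the authors deposited.

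Summits came from the deposited offset, and coordinates count from 1. Genes came from Ensembl 115 on WBcel235, the same sequence as ce11, with symbols from RefSeq for 46881 genes, and mature strands and other sequences from the RefSeq annotation and genome of that assembly. Distances were measured to gene bodies, with negative distances to starts being upstream. Pooled summits were matched to the nearest replicate summit within 200 bp, and means ± SD are over 2 replicates. The scripts (Python 3.11.15, pandas 2.3.3) were tested on simulated data. The members, gene lists and motifs were chosen with earlier results of these data known. Genes named were the members, genes closer to a summit or hosting one, the 6 other microRNA genes of highest signal, the 3 most like mir-52, and listed genes with a thresholded summit. Weak listed genes, and mir-80, mir-48 and F09A5.15 as other microRNA genes, were named after their values were seen. Alternatives varied the reach, the peak list, the replicates, the matching and the gene start.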

Additional observations from a re-analysis of the deposited data

How the results depend on the processing

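Of 59 alternative values for 14 results, 46 stayed and 13 moved. Staying meant within 1.5 times the value for a count, or within 1 SD between the replicates for a signal or distance. Each of 2 values always lies within 1 SD of their mean, so a signal could not move when a replicate was left out. Distances of 8 and 10 bp against 6 at mir-52 counted as moved, while 497 against 547 at mir-54 stayed. With the 250 strongest thresholded peaks, 3 members kept a summit in reach, mir-51, mir-52 and mir-53, and a single replicate gave 3 to 6, the lower value without replicate 2, where no chromosome X member remained. A reach of 500 bp left 5, without mir-53. The 15 other microRNA genes became 7 at a reach of 1000 bp, 5 at 500 bp, 4 with the 250 strongest peaks, 25 with the 1002 strongest pooled intervals, 9 to 10 with 1 replicate, and 14 without F09A5.15, an alternative chosen after seeing the data. The 10 pooled intervals became 5 at a reach of 500 bp and 5 among the 5000 strongest. The replicate summits matched to the strongest pooled one ran from -23 to 59 bp from the start of mir-51, from 8 to 10 bp for mir-52 and from 1556 to 1638 bp for mir-53. At the mir-56 side peak the replicates gave 34.2 to 76.8 around a mean of 55.5, with an SD of 30.1. By the rule both values counted as staying, although the replicates disagreed. The strongest interval in reach of the chromosome X members changed side, from 146 bp upstream of mir-54 in replicate 1 to 497 bp downstream of its start in replicate 2. Matching within 50 bp gave no value for the mir-51 and mir-54 side peaks. No paired analysis was possible because the series has a single group. With 2 replicates, unknown depth and an unstated signal scale, SDs and ratios hold only on the deposited scale.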

Other observations

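The promoters of the family, 300 bp each, differed in base composition between members. They are not separate sequences on chromosome X. The mir-55 promoter contains the mir-54 hairpin, and the mir-56 promoter contains the mir-55 hairpin and part of that of mir-54. The mir-51 promoter contains F36H1.17. G and C made up 52.7% at mir-52 and mir-54, 51.0% at mir-51, 45.3% at mir-53, 41.3% at mir-56 and 37% at mir-55, against medians of 39.0% over other microRNA genes and 33.0% over all genes. Of the 4 thresholded peaks, the mir-52 peak and the intergenic one between mir-51 and mir-53 had windows of 40.6 and 39.6% G and C, while the mir-51 and mir-56 side windows had 51.5 and 61.4%. The family's peaks therefore spanned from above 15.8% to above 93.6% of the 501 thresholded windows.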
